A study of Mus musculus with 9 samples.

Results

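Spleen dendritic cells labelled mcDC were compared with type 1 conventional dendritic cells (cDC1) sorted from the same tissue. The comparison takes 3 mcDC and 3 cDC1 libraries out of the 9 of the study, chosen by their labelled cell type, and leaves out 3 libraries of type 2 conventional dendritic cells (cDC2). All 6 came from spleens of C57Bl/6 mice aged 8 to 12 weeks, and the labels name no genotype change and no treatment. Sort markers and gates are not stated in any source used here. RNA was sequenced from directional libraries, and expression was deposited as RPKM, a read count scaled to gene length and library size. The 11805 of 14862 listed genes that were above 1 RPKM in at least 2 of the 6 libraries were tested, and fold changes are on the scale of log2(RPKM + 1), which understates the change of low genes.

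cDC1 are the dendritic cells that take up dying cells through receptors such as CLEC9A and present the captured protein on MHC class I to CD8 T cells, under the transcription factors IRF8 and BATF3. In the field mcDC stands for merocytic dendritic cells, which the labels do not spell out. Merocytic cells are known in the mouse for taking up particles of dying cells, keeping them for long, making type I interferon and priming T cells against cell-associated antigen, without the CD8 alpha chain that marks spleen cDC1.

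The recovered depth was 8.22, 5.56 and 5.14 M reads in mcDC replicates 1, 2 and 3, against 11, 11.01 and 9.68 M in cDC1. One read in a gene of 1 kb was therefore worth 0.122 to 0.195 RPKM in mcDC and 0.0908 to 0.103 RPKM in cDC1. Replicates are numbered by runs of consecutive library titles, and the title run was fitted as a block. Pairs of libraries of one subset had a Pearson's r across genes, which are no independent replicates, of 0.895 to 0.960 in mcDC and 0.968 to 0.986 in cDC1. Among the 6 libraries mcDC replicate 3, the shallowest, had 12.35% of genes at 0, against 3.35% to 6.47% in the others, and cDC1 replicate 1 stood above the other cDC1 libraries on cDC2 genes, as given below. With the block, 1933 genes were called without mcDC replicate 3 and 1716 without cDC1 replicate 1, against 1484 with all 6. In such fits the run partner of the library left out carries no weight either, so they do not isolate one library. With no block the numbers were 1829 and 742, against 1096. Separate animals are not named for the libraries in the labels. The p-values therefore reflect spread among libraries, which may be technical.

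The cDC1 libraries held the defining transcripts of that subset, and the mcDC libraries held less of them. Cd8a (12525), which encodes the CD8 alpha chain, was at 3.72, 4.02 and 9.68 RPKM in mcDC, against 306, 344 and 346 RPKM in cDC1 (-5.72 ± 0.22, limma adjusted p = 6.6e-05). The first value in such brackets is the log2 fold change with its standard error, from 3 libraries in each subset. Xcr1 (23832), the receptor that draws cDC1 to the chemokine XCL1, was at 10.3, 17.3 and 19.4 RPKM in mcDC, against 131, 174 and 173 RPKM in cDC1 (-3.30 ± 0.15, limma adjusted p = 6.6e-05). Clec9a (232414), a receptor for actin filaments exposed by dead cells, was at 46.6, 74.4 and 61.7 RPKM in mcDC, against 308, 353 and 315 RPKM in cDC1 (-2.42 ± 0.14, limma adjusted p = 0.00013). All 3 genes were lower in every mcDC library than in any cDC1 library, without being absent. Sort markers are not stated, so a difference at a gene used to sort the cells cannot be told from the sort itself.

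In the other direction, Tgm2 (21817), a protein cross-linking enzyme that helps mouse macrophages engulf dying cells, was at 103, 98.4 and 96.5 RPKM in mcDC, against 5.37, 4.78 and 5.29 RPKM in cDC1 (4.03 ± 0.15, limma adjusted p = 6.6e-05). Ryr3 (20192), a channel that releases calcium from the endoplasmic reticulum, was at 28.5, 27.4 and 16.5 RPKM in mcDC, against 0.676, 0.0705 and 0.0668 RPKM in cDC1 (4.30 ± 0.25, limma adjusted p = 0.00012). Mertk (17289), a receptor kinase for bridged phosphatidylserine on dying cells, was at 11, 15.8 and 14.2 RPKM in mcDC, against 1.1, 1.28 and 1.87 RPKM in cDC1 (2.60 ± 0.23, limma adjusted p = 0.00049). At each of these 3 genes every mcDC library was above every cDC1 library. In cDC2, outside the fit, Tgm2 was at 196, 226 and 201 RPKM, above mcDC. Ryr3 was at 7.62, 8.36 and 3.99 RPKM there and Mertk at 0.61, 0.818 and 0.775 RPKM, both below mcDC. In RNA from a sorted population, fewer cells of a type and less RNA per cell cannot be told apart, here and in all that follows.

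Genes shared by conventional dendritic cells were present in both subsets. Itgax (16411), the CD11c integrin chain, was at 414, 308 and 253 RPKM in mcDC, against 307, 261 and 243 RPKM in cDC1 (limma adjusted p = 0.33). Zbtb46 (72147), a zinc finger factor that marks the conventional lineage, was at 44.4, 34.9 and 25.5 RPKM in mcDC, against 38.1, 44.3 and 39.2 RPKM in cDC1 (0.46). Batf3 (381319) was at 143, 160.0 and 249 RPKM in mcDC, against 167, 169 and 176 RPKM in cDC1 (0.85). The groups overlapped at all 3 genes, and none passed the test. Flt3 (14255), the receptor for the growth factor of dendritic cells, was at 189, 189.7 and 144 RPKM in mcDC, against 286, 259 and 250 RPKM in cDC1 (-0.61 ± 0.14, limma adjusted p = 0.027). Its groups did not overlap, but the call was lost with no block (adjusted p = 0.057) and with the block when mcDC replicate 2 or 3 or cDC1 replicate 2 or 3 was left out (0.13, 0.082, 0.13 and 0.08).

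**Figure D1:**
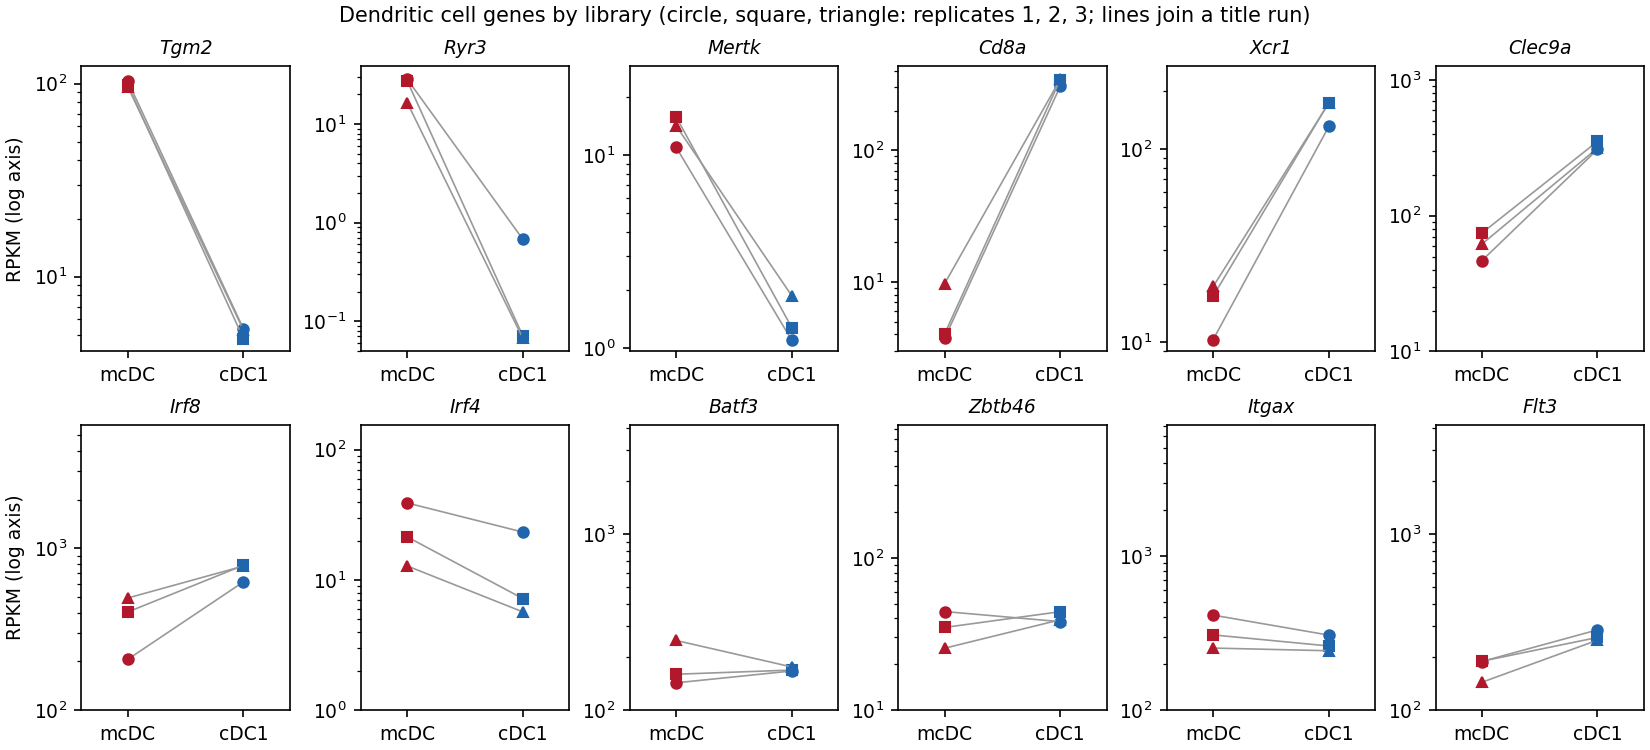
Expression of 12 dendritic cell genes in each library, in RPKM on a log axis, with mcDC in red on the left and cDC1 in blue on the right; grey lines join libraries of one title run. Tgm2, Ryr3 and Mertk are higher in all 3 mcDC libraries, Cd8a, Xcr1 and Clec9a lower, while Batf3, Zbtb46 and Itgax overlap.

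Of 11805 genes tested, 1484 passed a limma adjusted p of 0.05 (12.6%), 876 of them higher in mcDC (7.42%) and 608 lower (5.15%). At least 2-fold apart were 597 of the higher and 374 of the lower genes, and at least 4-fold apart 151 and 113. The 3 mcDC libraries were all above the 3 cDC1 libraries at 19.7% of genes and all below them at 11.1%, 30.8% together. Over all genes tested the log2 fold change had a median of 0.09, which was -0.01 after quantile normalization and -0.03 after median-of-ratios scaling. These scalings turned the balance of calls, from 59.0% higher to 49.7% (755 higher and 764 lower) and 47.2% (690 and 773). With no block 1096 genes passed, of which 1064 are among the 1484.

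**Figure D2:**
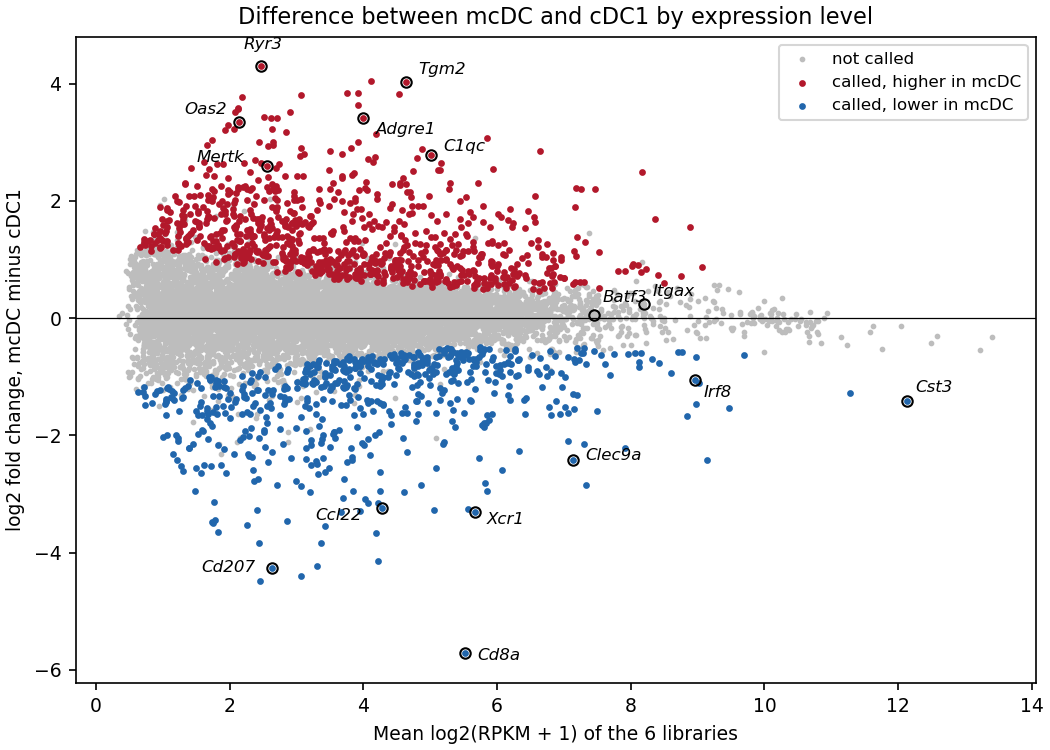
Log2 fold change of mcDC over cDC1 for each of the 11805 genes tested, against its mean log2(RPKM + 1) over the 6 libraries; red points were called higher in mcDC, blue points lower, grey points not called. Ryr3 and Tgm2 lie at the top, Cd8a at the bottom, and Batf3 and Itgax on the grey band around 0.

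The largest rises by the naming rule were Ryr3, Sirpb1a, Tgm2, Clec4a4, Clec4a1, Dtx1, Ifitm1, Mmp9, Slc8a2, Tppp3, Clec4b1 and Adgre1. Dtx1 (14357), a ubiquitin ligase that regulates Notch signalling, was at 109.7, 77.4 and 75.8 RPKM in mcDC, against 9.87, 3 and 4.27 RPKM in cDC1 (3.83 ± 0.20, limma adjusted p = 0.0001). Slc8a2 (110891), a sodium and calcium exchanger, was at 18.1, 13.6 and 11.1 RPKM in mcDC, against 0.521, 0.193 and 0.109 RPKM in cDC1 (3.57 ± 0.24, limma adjusted p = 0.00018). Mmp9 (17395), a gelatinase, was at 24.4, 15.3 and 7.4 RPKM in mcDC, against 0.114, 0.286 and 0.39 RPKM in cDC1 (3.59 ± 0.37, limma adjusted p = 0.00092). Each cDC1 library was below every mcDC library at these genes. Tppp3 (67971), which promotes tubulin polymerisation, was at 19.2, 17.7 and 41.3 RPKM in mcDC, against 1.15, 1.24 and 1.21 RPKM in cDC1 (3.52 ± 0.28, limma adjusted p = 0.00032). Sirpb1a (320832), a signal-regulatory receptor, was at 101, 59.6 and 56.4 RPKM in mcDC, against 9.73, 2.36 and 1.17 RPKM in cDC1 (4.05 ± 0.27, limma adjusted p = 0.00019). Sirpb1a and the Clec4a and Clec4b genes have near-identical neighbours between which reads could have been split, so their values are uncertain. In cDC2, outside the fit, Sirpb1a was at 142, 138 and 136 RPKM, Clec4a1 at 134, 149.7 and 171 RPKM and Tppp3 at 35.1, 31.3 and 42.2 RPKM. Dtx1 was at 80.7, 68.2 and 47.4 RPKM there, Slc8a2 at 14.7, 11 and 8.4 RPKM and Ifitm1 at 25, 38.2 and 64 RPKM. A rise over cDC1 thus need not set mcDC apart from cDC2.

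The largest falls were Cd8a, Dkk3, Mab21l3, Cd207, Mir7062, Ttc39a, P3h2, Clec4b2, Pianp, Mir7026, Itgae and Bst1. Dkk3 (50781), a secreted glycoprotein of the Dickkopf family, was at 0, 0.107 and 0.405 RPKM in mcDC, against 20.1, 29.2 and 26.7 RPKM in cDC1 (-4.49 ± 0.23, limma adjusted p = 9.7e-05). Ttc39a (230603) was at 2.98, 3.16 and 4.29 RPKM in mcDC, against 60.3, 91.8 and 85 RPKM in cDC1 (-4.15 ± 0.18, limma adjusted p = 6.6e-05). Bst1 (12182), a cell surface ADP-ribosyl cyclase, was at 0.156, 1.46 and 0 RPKM in mcDC, against 14.3, 14.3 and 17.7 RPKM in cDC1 (-3.53 ± 0.33, limma adjusted p = 0.00066). Levels of Dkk3 and Bst1 in mcDC rest on few reads, with 0, 2 and 7 reads for Dkk3. Mir7062 and Mir7026 are short microRNA hairpins inside the genes Adam8 and Ep400. Mir7026 (102466216) had 0 reads in each mcDC library, against 7, 11 and 7 reads in cDC1, so no fold is given, and its call was lost with voom (adjusted p = 0.22), as was that of Mir7062 (0.12). The host gene Adam8 fell (log2 fold change -1.58 ± 0.16, limma adjusted p = 0.00078), while Ep400 had -0.12 ± 0.20 (0.75).

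The fall of cDC1 genes was graded. Of 24 genes listed for cDC1 identity 23 were tested, 19 were lower and 0 higher in mcDC, with a median log2 fold change of -1.86 beside 0.09 over all genes tested, of which 5.15% were lower. The mean level in mcDC was 1.72% of that in cDC1 for Cd207 (langerin), 1.75% for Cd8a, 6.15% for Itgae (the CD103 integrin chain) and 9.83% for Xcr1. It was 18.7% for Clec9a, 28.0% for Tlr3 (the receptor for double-stranded RNA), 34.7% for Naaa (an acid amidase), 50.6% for Irf8 and 56.3% for Wdfy4 (needed for cross-presentation in mouse cDC1). The percentage of Cd207 rests on few reads, with 7, 7 and 0 in mcDC. The members not called were Id2, Zbtb46 and Batf3, at 70.8%, 86.2% and 108%, and a septin gene whose symbol the deposited table holds as a calendar date, at 65.4%. Naaa was not called with no block (adjusted p = 0.053), and Wdfy4 not without replicate 2 of mcDC or cDC1 (0.064 and 0.059). Id2 was called lower without replicate 3 of mcDC or cDC1 (0.033 and 0.035). It was also called lower after quantile normalization (0.022), with median-of-ratios scaling (0.035), with voom (0.016) and with all 9 libraries in the fit (0.034). The mean log2(RPKM + 1) of the list was 4.14, 4.72 and 4.63 in mcDC, against 6.42, 6.74 and 6.72 in cDC1.

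Irf8 (15900), which drives cDC1 development, was at 206, 404 and 493 RPKM in mcDC, against 620.4, 785 and 777 RPKM in cDC1 (-1.06 ± 0.20, limma adjusted p = 0.012). It was lowest in mcDC replicate 1, the groups did not overlap, and with no block the adjusted p was 0.085. Irf4 (16364), a factor of cDC2, was at 39, 21.4 and 12.8 RPKM in mcDC, against 23.3, 7.19 and 5.68 RPKM in cDC1 (1.07 ± 0.19, limma adjusted p = 0.011). Here the groups overlapped while mcDC was higher within each title run, the call was lost with no block (adjusted p = 0.3), and with the block it was lost without mcDC replicate 2 (0.064).

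Genes listed for cDC2 were mostly higher in mcDC than in cDC1. Of 24 listed 23 were tested, 16 were higher and 2 lower, with a median of 1.32, and with no block 10 and 1 were called. Sirpa (19261), which restrains phagocytosis of cells that display CD47, was at 213, 145 and 151 RPKM in mcDC, against 43, 11.5 and 13.4 RPKM in cDC1 (3.07 ± 0.24, limma adjusted p = 0.00032). Itgam (16409), the CD11b integrin chain, was at 15, 16.4 and 10 RPKM in mcDC, against 3.99, 2.61 and 3.1 RPKM in cDC1 (1.79 ± 0.23, limma adjusted p = 0.0026). Ccr6 (12458), a receptor for the chemokine CCL20, was at 19.8, 15 and 5.28 RPKM in mcDC, against 0.251, 0.668 and 0.238 RPKM in cDC1 (3.22 ± 0.35, limma adjusted p = 0.0012). The groups did not overlap at these 3 genes. Sirpa was highest among cDC1 libraries in replicate 1, and the mean log2(RPKM + 1) of the cDC2 list was 4.99, 4.83 and 4.58 in mcDC, against 4.01, 3.27 and 3.30 in cDC1. The cDC2 gene counts became 16 and 1, 14 and 0, or 16 and 2, without mcDC replicate 1, 2 or 3 and 16 and 0, 15 and 0, or 16 and 2, without cDC1 replicate 1, 2 or 3, with medians of 1.68, 1.06 and 1.20. The lower members were Rbpj (19664), the DNA-binding factor of Notch signalling (-0.56 ± 0.13, limma adjusted p = 0.03), and Clec12a (232413), an inhibitory lectin (-0.71 ± 0.18, limma adjusted p = 0.038). With the block the call of Rbpj was lost without mcDC replicate 2, cDC1 replicate 1 or cDC1 replicate 2 (adjusted p = 0.18, 0.051 and 0.18). That of Clec12a was lost without mcDC replicate 1 or 2 or cDC1 replicate 1 or 2 (adjusted p = 0.063, 0.067, 0.072 and 0.066), and with no block (0.06).

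The sequences before the start sites of the genes that mark the subsets are shown so that they can be set beside the values, each from 250 bases before to 50 bases after the start of the RefSeq gene in build GRCm38.p6. They are Mertk at chr2:128698665-128698964 on the plus strand, Cd8a at chr6:71373177-71373476 on the plus strand, Xcr1 at chr9:123861980-123862279 on the minus strand and Clec9a at chr6:129408612-129408911 on the plus strand, each printed along the strand of its gene. Capitals mark the motifs found among 6 that were searched on both strands. These were an ISRE-like motif of interferon response factors (GAAA, any 2 bases, GAAA), an AP-1 site (TGANTCA), an ETS-IRF composite (GGAA, any 2 bases, GAAA), a PU.1-like site (GAGGAAGT), a MAF half-site (TGCTGAC) and an E-box (CACGTG). ISRE-like and ETS-IRF motifs can overlap.
Mertk: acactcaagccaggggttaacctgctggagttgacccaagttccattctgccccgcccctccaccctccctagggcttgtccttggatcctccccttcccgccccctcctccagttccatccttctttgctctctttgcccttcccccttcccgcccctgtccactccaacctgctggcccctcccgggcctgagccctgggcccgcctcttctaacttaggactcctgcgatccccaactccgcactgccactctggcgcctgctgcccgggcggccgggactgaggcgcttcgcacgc
Cd8a: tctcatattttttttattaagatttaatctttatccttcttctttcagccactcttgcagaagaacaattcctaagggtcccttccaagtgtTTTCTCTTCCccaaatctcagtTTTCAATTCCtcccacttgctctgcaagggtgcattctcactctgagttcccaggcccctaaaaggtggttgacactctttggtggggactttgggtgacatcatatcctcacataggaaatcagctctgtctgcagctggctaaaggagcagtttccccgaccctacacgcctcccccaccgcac
Xcr1: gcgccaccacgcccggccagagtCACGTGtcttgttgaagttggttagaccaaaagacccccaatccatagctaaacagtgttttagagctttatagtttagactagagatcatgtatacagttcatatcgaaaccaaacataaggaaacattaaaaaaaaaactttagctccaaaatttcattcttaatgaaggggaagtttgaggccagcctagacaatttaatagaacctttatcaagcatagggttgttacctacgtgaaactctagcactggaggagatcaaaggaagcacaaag
Clec9a: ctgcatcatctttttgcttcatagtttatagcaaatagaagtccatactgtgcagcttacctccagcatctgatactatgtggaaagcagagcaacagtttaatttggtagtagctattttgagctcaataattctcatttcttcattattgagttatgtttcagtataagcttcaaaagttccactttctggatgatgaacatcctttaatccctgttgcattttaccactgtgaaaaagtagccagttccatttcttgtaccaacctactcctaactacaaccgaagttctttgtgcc
The Cd8a window held the ETS-IRF composite, which binds IRF8 or IRF4 together with PU.1, at positions -158 and -136 from the start site on the minus strand. It occurs in 2.79% of all 27025 promoters of this length. The Xcr1 window held the E-box at -227, found in 7.24% of promoters. No match stood in the Mertk and Clec9a windows. For Tgm2 and Ryr3, which also mark mcDC against cDC1, no window was available. A match is a string of letters in a window and no evidence of binding.

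Genes listed for tissue macrophages were mostly higher in mcDC than in cDC1. Of 30 listed 28 were tested, 22 were higher and 1 lower, against 7.42% higher and 5.15% lower over all genes tested, with a median log2 fold change of 1.63, and with no block 21 and 1. Adgre1 (13733), which encodes the macrophage antigen F4/80, was at 64.4, 46.1 and 45.1 RPKM in mcDC, against 6.97, 1.76 and 4.29 RPKM in cDC1 (3.42 ± 0.24, limma adjusted p = 0.0002). Nr1h3 (22259), the nuclear receptor LXR alpha, was at 10.4, 10.3 and 19.5 RPKM in mcDC, against 0.56, 1.76 and 1.57 RPKM in cDC1 (2.64 ± 0.27, limma adjusted p = 0.00089). Csf1r (12978), the receptor of the macrophage growth factor CSF1, was at 81.6, 74.3 and 104 RPKM in mcDC, against 32.5, 12.7 and 21.5 RPKM in cDC1 (2.0 ± 0.22, limma adjusted p = 0.0013). Every mcDC library was above every cDC1 library at these genes. Adgre1 and Csf1r were higher still in cDC2, outside the fit, at 95.7, 90.2 and 87.6 RPKM and at 169, 204 and 230.3 RPKM. Nr1h3 was lower in cDC2 than in mcDC, at 5.42, 8.15 and 8.05 RPKM.

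Red pulp macrophage genes were among the listed genes higher in mcDC. Spic (20728), the transcription factor of these iron-recycling cells, was at 29.5, 31.2 and 45.9 RPKM in mcDC, against 12.8, 8.46 and 10.7 RPKM in cDC1 (1.64 ± 0.20, limma adjusted p = 0.0019). Slc40a1, the iron exporter ferroportin, had a log2 fold change of 2.30 (limma adjusted p = 0.00018), Hmox1, which breaks down heme, 1.09 (0.013, with no block 0.083), Cd5l, a secreted scavenger protein, 2.43 (0.0014), and Vcam1 1.24 (0.0074). The genes did not all follow this direction. Mpeg1 (17476), a pore-forming protein of phagocytes, fell to 293, 546 and 448 RPKM in mcDC, against 1077, 1275 and 1267 RPKM in cDC1 (-1.53 ± 0.18, limma adjusted p = 0.0015). Apoe, Cd14, Tlr4, Timd4 and Siglec1 did not pass. Without replicate 1 of mcDC or cDC1 Apoe did (adjusted p = 0.0098 and 0.0091), and without replicate 3 Timd4 did (0.049 and 0.047). Marco and Vsig4, markers of other spleen and liver macrophages, stayed under the filter with at most 1.45 RPKM in any library. The mean of the list was 4.35, 4.60 and 4.83 in mcDC, against 3.17, 2.89 and 3.32 in cDC1, and its summed level was 1447, 1879 and 2295 RPKM in mcDC, against 1623, 1744 and 1899 RPKM in cDC1, a sum to which Mpeg1 gives the most in cDC1. No macrophage gene of the list that is in the deposited table was at 0 in all 6 libraries. Whether macrophage RNA or macrophages in the sort have a part in these values was not tested.

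**Figure D3:**
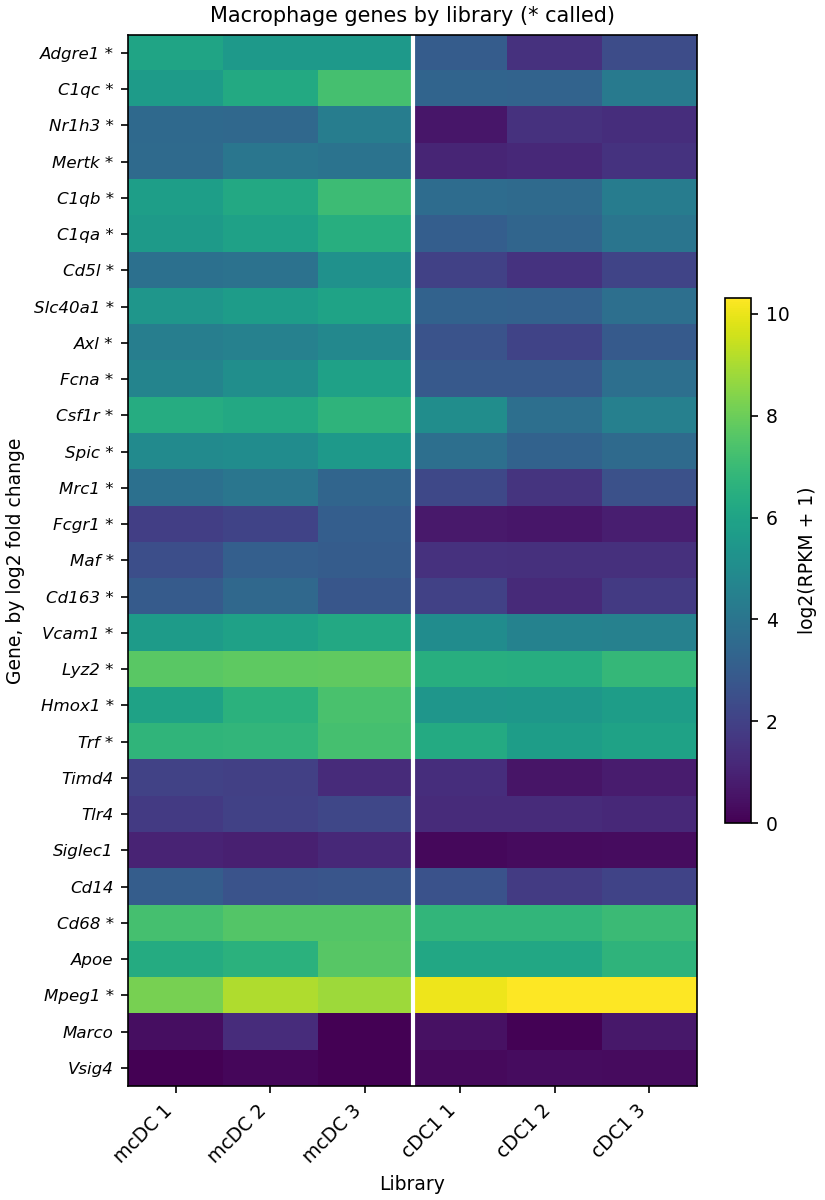
Level of listed macrophage genes as log2(RPKM + 1) in the 3 mcDC libraries left of the white line and the 3 cDC1 libraries right of it; genes are ordered by log2 fold change and a star marks a call. The genes called higher are brighter in mcDC, Mpeg1 is brighter in cDC1, and Marco and Vsig4 are near 0 throughout.

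Receptors and bridging proteins for dying cells moved in both directions. Of 30 listed 23 were tested, 10 were higher and 3 lower in mcDC (56.5% called, against 12.6% over all genes), with a median of 0.86 and the same counts with no block. Besides Tgm2 and Mertk, Axl (26362), the sister kinase of Mertk, was at 20.2, 22.1 and 27.2 RPKM in mcDC, against 5.3, 3.18 and 6.49 RPKM in cDC1 (2.04 ± 0.21, limma adjusted p = 0.00086). Cd300lf (246746), a receptor for phosphatidylserine and other lipids, was at 68.3, 43.6 and 49.8 RPKM in mcDC, against 10.9, 3.33 and 3.43 RPKM in cDC1 (3.14 ± 0.22, limma adjusted p = 0.00021). Cd300a, Lrp1 and Itgb5 were also called higher (log2 fold changes of 1.48, 1.44 and 1.51), and the call of Itgb5 was lost without mcDC replicate 2 (adjusted p = 0.064). The receptors that fell were Clec9a, Cd36 (12491) and Havcr2. Cd36, a scavenger receptor, was at 8.87, 11.4 and 9.55 RPKM in mcDC, against 70.1, 83.6 and 78.7 RPKM in cDC1 (-2.85 ± 0.14, limma adjusted p = 9.5e-05), and Havcr2, the phosphatidylserine receptor TIM-3, at 73.0, 79.8 and 61.2 RPKM in mcDC, against 178, 206 and 189 RPKM in cDC1 (-1.42, 0.00070). The groups did not overlap at any of these. Tyro3, of the same kinase family, and Gas6, a ligand that bridges it to phosphatidylserine, stayed under 1 RPKM in all 6 libraries, and Mfge8 and Pros1 were not called.

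Of 30 genes of the cytoplasmic machinery of engulfment 28 were tested, 4 were higher and 2 lower (21.4% called, against 12.6% over all genes), with a median of 0.20, and with no block 1 and 0. The engulfment counts became 4 and 2, 1 and 0, or 5 and 0, without mcDC replicate 1, 2 or 3 and 4 and 2, 2 and 0, or 5 and 0, without cDC1 replicate 1, 2 or 3, with medians of 0.30, 0.16 and 0.21. The call with no block was Rac2 (19354), a GTPase that remodels actin and serves the phagocyte oxidase, at 114, 125 and 141 RPKM in mcDC, against 53, 59.3 and 65.8 RPKM in cDC1 (1.08 ± 0.12, limma adjusted p = 0.0015). Of 20 genes of LXR targets and cholesterol efflux 4 were higher and 2 lower (30% called, against 12.6% over all genes), with a median of 0.35 (4 and 1 with no block). The LXR counts became 6 and 2, 3 and 2, or 6 and 4, without replicate 1, 2 or 3 of either subset, with medians of 0.31, 0.33 and 0.26. Pltp (18830), phospholipid transfer protein, was at 13.6, 16.1 and 13.7 RPKM in mcDC, against 1.61, 0.603 and 0.685 RPKM in cDC1 (3.01 ± 0.26, limma adjusted p = 0.00046), while Abcg1 (11307), a cholesterol exporter, was lower at 24.7, 20.9 and 10.7 RPKM in mcDC, against 41.5, 47.4 and 33.4 RPKM in cDC1 (-1.14 ± 0.19, limma adjusted p = 0.0071), and Abcg1 was not called with no block (adjusted p = 0.056).

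Of 25 complement components and receptors listed 16 were tested and 5 were higher, with 0 lower (31.2% called, against 12.6% over all genes) and a median of 0.86 (6 and 0 with no block). The chains of C1q, which opsonises immune complexes and dying cells, rose together. C1qa (12259) was at 47.7, 58.9 and 88.1 RPKM in mcDC, against 7.38, 9.39 and 15.2 RPKM in cDC1 (2.51 ± 0.14, limma adjusted p = 0.00012). C1qb (12260) was at 54.5, 74.9 and 135 RPKM in mcDC, against 11.6, 10.8 and 19.4 RPKM in cDC1 (2.52 ± 0.17, limma adjusted p = 0.00018). C1qc (12262) was at 49.2, 75.7 and 156 RPKM in mcDC, against 9.05, 8.69 and 18.3 RPKM in cDC1 (2.78 ± 0.18, limma adjusted p = 0.00017). All 3 were highest in mcDC replicate 3 among the 6 libraries and in replicate 3 among the cDC1 libraries, and the macrophage list was highest in the same libraries. Cfp, which encodes properdin, was at 228, 239 and 243 RPKM in mcDC, against 124, 75 and 76.8 RPKM in cDC1 (1.39 ± 0.18, limma adjusted p = 0.0027).

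Of 18 Fc receptors and partners 15 were tested, 7 were higher and 3 lower (66.7% called, against 12.6% over all genes), with a median of 0.94 (5 and 2 with no block). The Fc receptor counts became 7 and 3, 6 and 2, or 8 and 4, without replicate 1, 2 or 3 of either subset, with medians of 0.81, 0.60 and 1.09. Fcer1g (14127), the common signalling chain, was at 288, 319 and 336 RPKM in mcDC, against 113, 47.8 and 54.1 RPKM in cDC1 (2.22 ± 0.26, limma adjusted p = 0.0015). Fcgr3 (14131), an activating receptor for IgG, was at 7.72, 14.1 and 13.1 RPKM in mcDC, against 2.68, 2.61 and 3.43 RPKM in cDC1 (1.66 ± 0.24, limma adjusted p = 0.0039). The inhibitory receptor Fcgr2b (14130) had 20.3, 29.7 and 40.6 RPKM in mcDC, against 39.1, 40.8 and 50.3 RPKM in cDC1, with overlapping groups, and did not pass (limma adjusted p = 0.071), but passed as lower without replicate 3 of mcDC or cDC1 (0.019 and 0.02). The intracellular Fc receptor-like genes were lower. Fcrla (98752) was at 2.51, 6.19 and 2.87 RPKM in mcDC, against 24.6, 25.9 and 27.9 RPKM in cDC1 (-2.56 ± 0.24, limma adjusted p = 0.0007). Fcrlb (435653) was at 0.284, 1.12 and 0.907 RPKM in mcDC, against 4.31, 9.25 and 8.92 RPKM in cDC1 (-2.23 ± 0.25, limma adjusted p = 0.0013).

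C-type lectins, which bind sugars or ligands on dying cells, split by gene. Of 31 listed 23 were tested, 10 were higher and 6 lower (69.6% called, against 12.6% over all genes), with a median of 0.50 (9 and 5 with no block). The lectin counts became 11 and 5, 10 and 5, or 10 and 6, without replicate 1, 2 or 3 of either subset, with medians of 0.95, 0.28 and 0.56. Clec4a1 (269799) was at 61.1, 52.3 and 55.7 RPKM in mcDC, against 5.83, 2.04 and 2.05 RPKM in cDC1 (3.84 ± 0.23, limma adjusted p = 0.00014). Clec4b1 (69810) was at 15.3, 19.2 and 19.3 RPKM in mcDC, against 1.39, 0.463 and 0.526 RPKM in cDC1 (3.43 ± 0.27, limma adjusted p = 0.00034). Its neighbour Clec4b2 (381809) was at 0.465, 0.688 and 0.186 RPKM in mcDC, against 23.9, 19.5 and 15.5 RPKM in cDC1 (-3.83 ± 0.23, limma adjusted p = 0.00014), the opposite direction within a pair of similar genes, whose reads may have been split. Ly75, the endocytic receptor DEC-205, and Clec1a fell together with Clec9a and Cd207.

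Of 26 Toll-like receptors and adaptors 25 were tested, 6 were higher and 5 lower (44% called, against 12.6% over all genes), with a median of 0.09, the same as over all genes tested (3 and 4 with no block). The Toll-like receptor counts became 6 and 4, 4 and 4, or 6 and 5, without replicate 1, 2 or 3 of either subset, with medians of -0.04, 0.10 and 0.14. Tlr7 (170743), the receptor for single-stranded RNA, was at 23, 18.3 and 8.73 RPKM in mcDC, against 4.15, 1.65 and 1.08 RPKM in cDC1 (2.43 ± 0.23, limma adjusted p = 0.00067). Tlr1 (21897), a partner of TLR2 for bacterial lipopeptides, was at 66.3, 52.2 and 45.8 RPKM in mcDC, against 19.3, 11.6 and 11 RPKM in cDC1 (1.92 ± 0.15, limma adjusted p = 0.00032). Tlr11 (239081), a mouse receptor for the profilin of protozoa, was at 15.7, 22.9 and 21.1 RPKM in mcDC, against 138, 179.8 and 162 RPKM in cDC1 (-2.95 ± 0.13, limma adjusted p = 6.6e-05). Tlr3 (142980) was at 18.4, 36 and 34.9 RPKM in mcDC, against 89.8, 116 and 113 RPKM in cDC1 (-1.85 ± 0.16, limma adjusted p = 0.00046). The groups did not overlap at any of these receptors. In cDC2, outside the fit, Tlr7 was at 35.5, 36.2 and 33.9 RPKM, above mcDC, and Tlr1 at 73.3, 68.6 and 59.7 RPKM. Tlr11 was at 20.8, 15.3 and 14.5 RPKM there and Tlr3 at 5.27, 7.94 and 7.65 RPKM. Unc93b1 (54445), the chaperone that carries TLR3 and TLR7 to endosomes, had 376, 325 and 334 RPKM in mcDC, against 374, 405 and 388 RPKM in cDC1 and did not pass (0.5).

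Of 30 cytosolic sensors of RNA and DNA 28 were tested, 10 were higher and 1 lower (39.3% called, against 12.6% over all genes), with a median of 0.45 (9 and 1 with no block). Ddx58 (230073), the gene of the cytosolic RNA helicase RIG-I, was at 12.9, 12.2 and 13.2 RPKM in mcDC, against 2, 1.71 and 1.73 RPKM in cDC1 (2.29 ± 0.21, limma adjusted p = 0.00063). Oas2 (246728), an enzyme that makes the signal for RNA decay, was at 13.6, 9.62 and 16.7 RPKM in mcDC, against 0.941, 0.252 and 0.0782 RPKM in cDC1 (3.34 ± 0.30, limma adjusted p = 0.00051). Mndal (100040462), of the interferon-inducible family of DNA binding proteins, was at 78.4, 96.6 and 111 RPKM in mcDC, against 28.5, 15.7 and 22.8 RPKM in cDC1 (2.07 ± 0.21, limma adjusted p = 0.00097). Oasl1 (231655), which in mice limits translation of the interferon regulator IRF7, was lower at 0.4, 2.45 and 1.1 RPKM in mcDC, against 7.48, 10.8 and 12.5 RPKM in cDC1 (-2.35 ± 0.27, limma adjusted p = 0.0015). The groups did not overlap at any of these 4 genes. In cDC2, outside the fit, Ddx58 was at 18.9, 19 and 16.8 RPKM and Oas2 at 21.8, 25.8 and 28.1 RPKM, both above mcDC. Mndal was at 58.2, 76.5 and 81.1 RPKM there and Oasl1 at 3.02, 3.39 and 4.5 RPKM.

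Of 45 interferon stimulated genes 43 were tested, 14 were higher and 5 lower (44.2% called, against 12.6% over all genes), with a median of 0.38 (12 and 4 with no block). The interferon stimulated gene counts became 13 and 5, 12 and 4, or 16 and 5, without mcDC replicate 1, 2 or 3 and 13 and 5, 12 and 3, or 16 and 5, without cDC1 replicate 1, 2 or 3, with medians of 0.36, 0.41 and 0.50. Ifitm1 (68713), a membrane protein that restricts virus entry, was at 36.9, 39.2 and 98.7 RPKM in mcDC, against 2.27, 3.32 and 4.66 RPKM in cDC1 (3.63 ± 0.21, limma adjusted p = 0.00013). Ifi27 (52668) was at 49.6, 46.7 and 56.2 RPKM in mcDC, against 7.67, 9.04 and 12.7 RPKM in cDC1 (2.28 ± 0.16, limma adjusted p = 0.00022). Oas1a (246730) was at 9.19, 7.99 and 10.9 RPKM in mcDC, against 1.54, 0.817 and 1.15 RPKM in cDC1 (2.26 ± 0.24, limma adjusted p = 0.001). Gbp5 (229898), a guanylate-binding GTPase, was lower at 11.6, 8.68 and 6.3 RPKM in mcDC, against 19.8, 24.6 and 19.8 RPKM in cDC1 (-1.21 ± 0.21, limma adjusted p = 0.0084). Isg15 and Mx2 were not among the calls. In cDC2, outside the fit, Ifi27 was at 55.6, 54 and 49.6 RPKM, Oas1a at 12.3, 20.8 and 23.7 RPKM and Gbp5 at 12.1, 10.2 and 7.21 RPKM. The rises of Ifi27 and Oas1a over cDC1 were thus not particular to mcDC.

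Of 26 genes that induce type I interferon or signal from its receptor 22 were tested, 3 were higher and 1 lower (18.2% called, against 12.6% over all genes), with a median of 0.00 (1 and 1 with no block). Ifnar1 (15975), a receptor chain, had 35.2, 29.1 and 29.8 RPKM in mcDC, against 31.3, 29.8 and 28.6 RPKM in cDC1 and did not pass (0.06 ± 0.14, limma adjusted p = 0.82). Ifnar2 (15976), the other receptor chain, was at 31.4, 28 and 29.3 RPKM in mcDC, against 15.4, 16.7 and 17.1 RPKM in cDC1 (0.81 ± 0.15, limma adjusted p = 0.012). Irf7 (54123) had 51.4, 66 and 118 RPKM in mcDC, against 50.9, 57.5 and 79.2 RPKM in cDC1, with overlapping groups (0.32). Irf1 (16362), a factor of the interferon gamma response, was lower at 70.6, 61.3 and 59.7 RPKM in mcDC, against 108, 128 and 122 RPKM in cDC1 (-0.89 ± 0.14, limma adjusted p = 0.0069).

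Windows of 4 of these genes are shown because they moved in opposite directions, Oas1a and Ddx58 higher in mcDC and Oasl1 and Gbp5 lower. They were chosen after their values and motifs were seen. They lie at chr5:120907476-120907775 on the minus strand, chr4:40239776-40240075 on the minus strand, chr5:114922990-114923289 on the plus strand and chr3:142496684-142496983 on the plus strand (GRCm38.p6, RefSeq), with the capitals and motifs as above.
Oas1a: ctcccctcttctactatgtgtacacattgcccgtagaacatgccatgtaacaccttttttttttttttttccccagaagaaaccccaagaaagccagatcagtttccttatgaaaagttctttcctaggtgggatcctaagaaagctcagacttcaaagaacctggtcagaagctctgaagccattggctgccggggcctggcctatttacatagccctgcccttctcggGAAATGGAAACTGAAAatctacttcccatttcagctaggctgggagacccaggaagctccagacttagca
Ddx58: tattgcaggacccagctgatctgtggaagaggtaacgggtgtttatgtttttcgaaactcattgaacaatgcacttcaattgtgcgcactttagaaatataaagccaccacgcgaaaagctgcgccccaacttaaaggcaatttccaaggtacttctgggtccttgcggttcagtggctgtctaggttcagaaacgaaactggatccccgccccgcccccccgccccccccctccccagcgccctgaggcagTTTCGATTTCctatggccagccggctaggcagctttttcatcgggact
Oasl1: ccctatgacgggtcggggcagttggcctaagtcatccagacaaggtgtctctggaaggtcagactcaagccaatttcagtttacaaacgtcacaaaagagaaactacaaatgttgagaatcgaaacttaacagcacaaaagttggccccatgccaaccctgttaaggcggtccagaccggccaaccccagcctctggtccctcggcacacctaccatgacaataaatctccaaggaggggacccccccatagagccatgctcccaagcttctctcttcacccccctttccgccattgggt
Gbp5: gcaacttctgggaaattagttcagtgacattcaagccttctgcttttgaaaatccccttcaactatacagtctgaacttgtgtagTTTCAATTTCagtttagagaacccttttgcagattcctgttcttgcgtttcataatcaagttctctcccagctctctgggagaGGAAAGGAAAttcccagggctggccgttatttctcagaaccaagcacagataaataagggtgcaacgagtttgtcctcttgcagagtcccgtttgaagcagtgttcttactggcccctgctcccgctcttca
The ISRE-like motif stood at -20 and -14 in Oas1a, as overlapping copies, at 3 on the minus strand in Ddx58 and at -165 on the minus strand in Gbp5, which also held the ETS-IRF composite at -82. The Oasl1 window held none of the 6 motifs. The ISRE-like motif occurs in 3.49% of all promoters and in 3.35% of the 9417 of tested genes. It was in 45 of the 672 promoters of genes called higher (6.70%) and in 16 of the 465 of genes called lower (3.44%). The PU.1-like site stood in 6.55% and 5.38% of those, against 3.65% of tested genes, and the AP-1 site in 7.74% and 6.67%, against 5.02%. The ETS-IRF composite stood in 3.87% and 2.58%, against 2.52%, the MAF half-site in 4.32% and 2.37%, against 3.47%, and the E-box in 8.33% and 7.96%, against 10.3%.

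**Figure D4:**
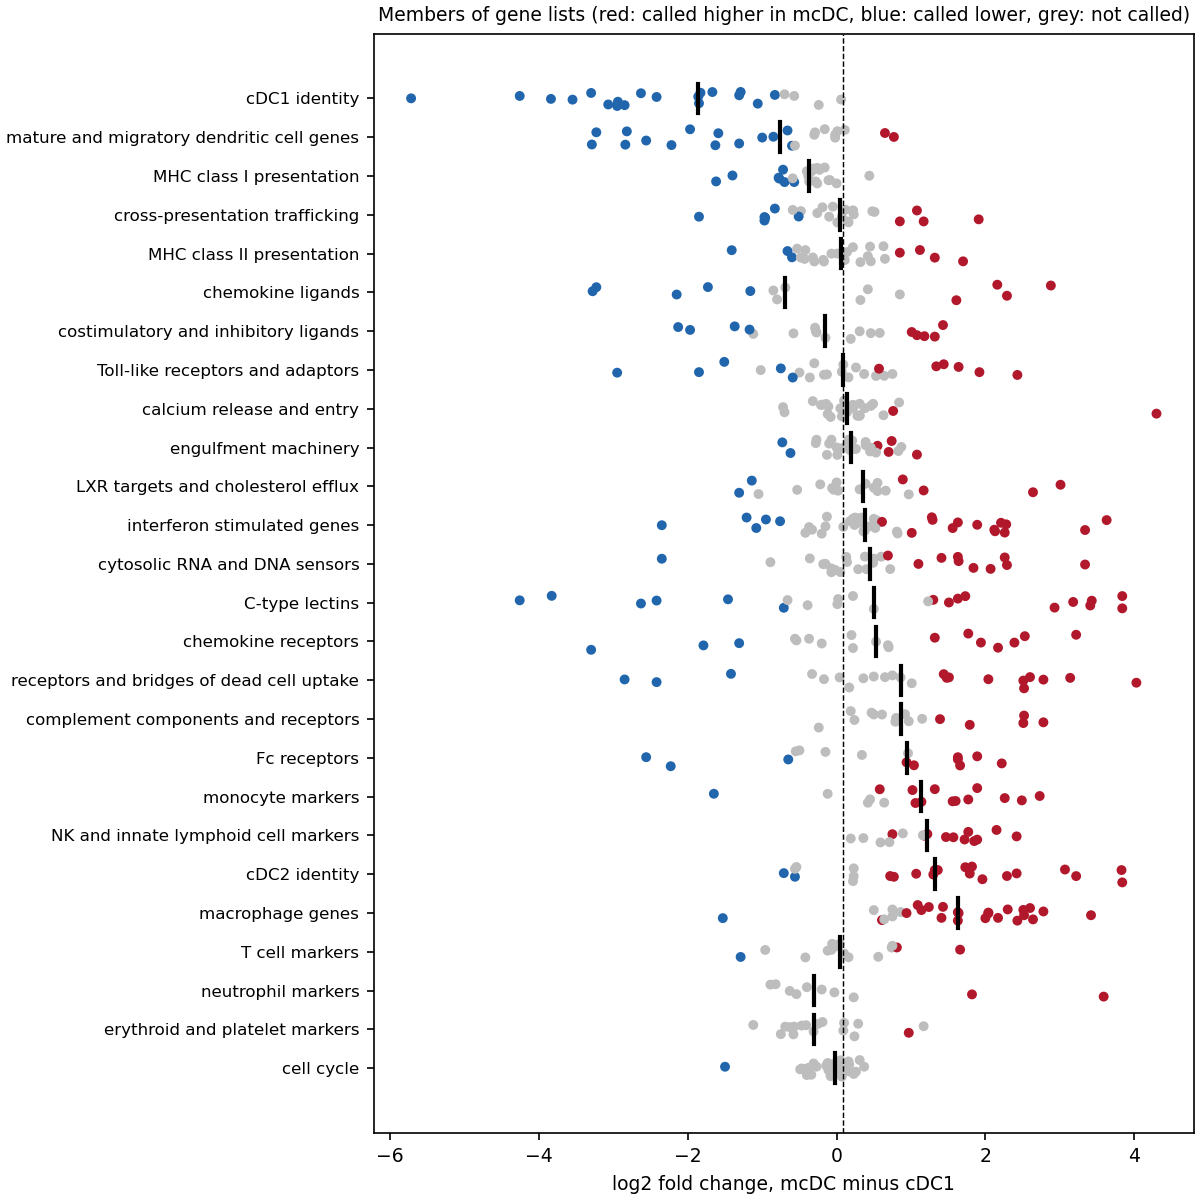
Log2 fold change of mcDC over cDC1 for the tested members of 26 gene lists, 1 row a list; red members were called higher in mcDC, blue lower, grey not called, the black bar is the list's median and the dashed line the median of all genes tested, 0.09. cDC1 identity and maturation lie left, macrophage, cDC2, NK and monocyte lists right, and cell cycle near it.

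Of 24 genes of antigen presentation on MHC class I 23 were tested, 0 were higher and 7 lower (30.4% called, against 12.6% over all genes), with a median of -0.37, and lower were 5 with no block, 12 after quantile normalization and 11 with median-of-ratios scaling. The class I counts became 1 and 7, 0 and 2, or 0 and 7, without replicate 1, 2 or 3 of either subset, with medians of -0.35, -0.35 and -0.39. Nlrc5 (434341), the transactivator of class I genes, was at 33.9, 28.7 and 24.6 RPKM in mcDC, against 71.3, 95.5 and 68.6 RPKM in cDC1 (-1.40 ± 0.16, limma adjusted p = 0.0015). Cd1d1 (12479), which presents lipids to NKT cells, was at 24.9, 25.6 and 24 RPKM in mcDC, against 79.8, 86.6 and 70.3 RPKM in cDC1 (-1.62 ± 0.13, limma adjusted p = 0.0004). The groups did not overlap. Tap1 (21354), a chain of the peptide transporter, was at 138, 139.8 and 171 RPKM in mcDC, against 233, 271 and 268 RPKM in cDC1 (-0.78 ± 0.13, limma adjusted p = 0.0087), and this call was lost without mcDC replicate 2 (0.12) or cDC1 replicate 2 (0.11). The light chain B2m (12010) had 1749, 1895 and 2058 RPKM in mcDC, against 1909, 1801 and 2004 RPKM in cDC1, with overlapping groups (0.99).

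Trafficking genes of cross-presentation went both ways, with 4 higher and 6 lower of 26 tested among 27 listed and a median of 0.04 (2 and 5 with no block) (38.5% called, against 12.6% over all genes). The cross-presentation counts became 6 and 7, 3 and 3, or 5 and 6, without replicate 1, 2 or 3 of either subset, with medians of 0.11, 0.02 and 0.03. Rab43 (69834), a GTPase that mouse cDC1 need for cross-presentation, was lower at 151, 159.7 and 130.4 RPKM in mcDC, against 267, 312 and 284 RPKM in cDC1 (-0.97 ± 0.13, limma adjusted p = 0.0034), as was Rab32 (-0.97 ± 0.14, limma adjusted p = 0.0036). Cybb (13058), the catalytic subunit of the phagosomal oxidase, had 94.1, 67.6 and 36.3 RPKM in mcDC, against 62.7, 17.8 and 16.9 RPKM in cDC1 (1.17 ± 0.23, limma adjusted p = 0.017), with overlapping groups and an adjusted p of 0.24 with no block.

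Of 26 MHC class II presentation genes, 4 were higher and 3 lower (26.9% called, against 12.6% over all genes), with a median of 0.06 (3 and 1 with no block, 8 and 3 after quantile normalization). The class II counts became 9 and 5, 4 and 1, or 4 and 1, without mcDC replicate 1, 2 or 3 and 9 and 5, 4 and 1, or 4 and 2, without cDC1 replicate 1, 2 or 3, with medians of 0.10, 0.05 and 0.04. H2-Eb2 (381091) was at 104, 79.3 and 55.8 RPKM in mcDC, against 26, 21.8 and 21.8 RPKM in cDC1 (1.70 ± 0.17, limma adjusted p = 0.00076). Ctsd (13033), a lysosomal protease, was at 79, 95.5 and 113 RPKM in mcDC, against 30, 34.9 and 49.8 RPKM in cDC1 (1.32 ± 0.13, limma adjusted p = 0.00086). The main chain H2-Ab1 (14961) had 4574, 4526 and 5939.7 RPKM in mcDC, against 6087, 6628 and 7492 RPKM in cDC1 and did not pass (-0.43 ± 0.24, 0.3). Cst3 (13010), the protease inhibitor cystatin C, was at 1478, 3051 and 4608 RPKM in mcDC, against 5516, 7714 and 9123 RPKM in cDC1 (-1.41 ± 0.26, limma adjusted p = 0.012), lowest in mcDC replicate 1. Its call was lost with no block (0.11) and with the block without mcDC replicate 2 (0.23), mcDC replicate 3 (0.052) or cDC1 replicate 2 (0.21).

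Genes listed for dendritic cell maturation and migration were mostly lower in mcDC than in cDC1. Of 25 listed 24 were tested, 14 were lower and 2 higher (66.7% called, against 12.6% over all genes), with a median of -0.76 (13 and 0 with no block). Ccl22 (20299), a chemokine for T cells with CCR4, was at 4.42, 6.15 and 5.58 RPKM in mcDC, against 53.1, 60.5 and 62.8 RPKM in cDC1 (-3.23 ± 0.16, limma adjusted p = 8.8e-05). Serpinb6b (20708), a protease inhibitor, was at 17.6, 18.1 and 26 RPKM in mcDC, against 118, 164 and 169.7 RPKM in cDC1 (-2.82 ± 0.15, limma adjusted p = 0.0001). Il12b (16160), a chain of interleukin 12, was at 5.91, 6.24 and 1.4 RPKM in mcDC, against 39.7, 48.3 and 54.8 RPKM in cDC1 (-3.29 ± 0.36, limma adjusted p = 0.0013). Ccr7 (12775), the receptor for migration to T cell zones, was at 149, 68.8 and 75.3 RPKM in mcDC, against 221, 263 and 209 RPKM in cDC1 (-1.31 ± 0.24, limma adjusted p = 0.011). The groups did not overlap at any of the 4. Levels in cDC2, outside the fit, were 6.72, 3.78 and 4.7 RPKM for Ccl22 and 13.4, 8.12 and 7.13 RPKM for Serpinb6b. They were 2.52, 1.32 and 0.866 RPKM for Il12b and 90.1, 33 and 30.8 RPKM for Ccr7. Tmem123, Marcks and Traf1 of the list were not called (limma adjusted p = 0.27, 0.97 and 0.95). The higher members, Relb and Tbc1d4, had adjusted p = 0.054 and 0.33 with no block, and Tbc1d4 was not called without replicate 2 of mcDC or cDC1 (0.14 and 0.14) or without mcDC replicate 1 (0.053).

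Ligands for T cells changed by gene. Of 27 costimulatory and inhibitory ligands 19 were tested, 5 were higher and 4 lower (47.4% called, against 12.6% over all genes), with a median of -0.15 (2 and 4 with no block). The costimulatory counts became 5 and 5, 3 and 4, or 5 and 6, without replicate 1, 2 or 3 of either subset, with medians of -0.13, -0.15 and -0.06. Il15 (16168), a cytokine that CD8 T cells and NK cells need, was at 5.25, 4.34 and 5.19 RPKM in mcDC, against 23.4, 23.9 and 19.4 RPKM in cDC1 (-1.97 ± 0.19, limma adjusted p = 0.00073). Pvr (52118), a ligand of DNAM-1, was at 4.37, 3.05 and 4.51 RPKM in mcDC, against 20.9, 23.8 and 17.4 RPKM in cDC1 (-2.13 ± 0.22, limma adjusted p = 0.001). Lgals9 (16859), a ligand of TIM-3, was higher at 21.5, 27.1 and 42.4 RPKM in mcDC, against 12, 11.4 and 17.2 RPKM in cDC1 (1.08 ± 0.17, limma adjusted p = 0.0056). Among 16 cytokines tested of 26 listed 3 were higher and 3 lower (37.5% called, against 12.6% over all genes), with a median of 0.17 (2 and 3 with no block). The cytokine counts became 3 and 4, 3 and 2, or 3 and 3, without replicate 1, 2 or 3 of either subset, with medians of 0.22, 0.30 and 0.12. Ltb (16994), lymphotoxin beta, was at 189.6, 153 and 154 RPKM in mcDC, against 80.3, 30.4 and 39.5 RPKM in cDC1 (1.82 ± 0.20, limma adjusted p = 0.0013). Flt3l (14256), the growth factor of dendritic cells, was at 15.7, 16.9 and 36.1 RPKM in mcDC, against 8.52, 6.03 and 8.65 RPKM in cDC1 (1.37 ± 0.24, limma adjusted p = 0.0088).

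The chemokine system differed on both sides. Of 27 chemokine receptors 19 were tested, 7 were higher and 3 lower (52.6% called, against 12.6% over all genes), with a median of 0.53 (6 and 3 with no block). The chemokine receptor counts became 8 and 3, 7 and 3, or 7 and 4, without replicate 1, 2 or 3 of either subset, with medians of 0.56, 0.27 and 0.44. Ccrl2 (54199), a non-signalling receptor for chemerin, was at 37.2, 22.5 and 27.1 RPKM in mcDC, against 5.81, 4.52 and 3.64 RPKM in cDC1 (2.39 ± 0.19, limma adjusted p = 0.00032), while Ccr9 (12769), a receptor for homing to the gut, was lower at 2.38, 2.7 and 1.55 RPKM in mcDC, against 11.2, 9.33 and 9.37 RPKM in cDC1 (-1.79 ± 0.23, limma adjusted p = 0.0024). Of 27 ligands 15 were tested, 4 were higher and 5 lower (60% called, against 12.6% over all genes), with a median of -0.69 (4 and 4 with no block). The chemokine ligand counts became 5 and 5, 4 and 4, or 4 and 6, without replicate 1, 2 or 3 of either subset, with medians of -0.49, -0.67 and -0.31. Cxcl9 (17329), which attracts T cells with CXCR3, was lower at 5.06, 9.34 and 18.2 RPKM in mcDC, against 81.6, 105 and 125 RPKM in cDC1 (-3.28 ± 0.21, limma adjusted p = 0.00016). Ccl3 (20302), an inflammatory chemokine, was higher at 124, 60.0 and 65.1 RPKM in mcDC, against 19.2, 4.59 and 10.2 RPKM in cDC1 (2.88 ± 0.20, limma adjusted p = 0.00021). The XCR1 ligand Xcl1 (16963) was higher at 25.9, 39.4 and 97.5 RPKM in mcDC, against 4.7, 9.03 and 15 RPKM in cDC1 (2.29 ± 0.17, limma adjusted p = 0.00031), in the subset with less Xcr1. Xcl1 is known as a product of NK and T cells. As a list, NK and innate lymphoid genes were also higher in mcDC, as given below, and whether they go with Xcl1 was not tested.

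Of 30 dendritic cell transcription factors 10 were higher and 2 lower (40% called, against 12.6% over all genes), with a median of 0.29 (5 and 1 with no block). The transcription factor counts became 12 and 3, 6 and 1, or 10 and 3, without mcDC replicate 1, 2 or 3 and 12 and 2, 8 and 1, or 10 and 3, without cDC1 replicate 1, 2 or 3, with medians of 0.42, 0.26 and 0.34. Klf4 (16600), needed for a branch of cDC2 in the mouse, was at 133, 75.7 and 72.7 RPKM in mcDC, against 50.7, 19 and 19.2 RPKM in cDC1 (1.73 ± 0.16, limma adjusted p = 0.00061). In the Notch pathway 2 of 25 tested were higher and 4 lower among 28 listed (24% called, against 12.6% over all genes), with a median of 0.08 and the same counts with no block. The Notch counts became 2 and 3, 1 and 2, or 4 and 5, without mcDC replicate 1, 2 or 3 and 2 and 2, 1 and 2, or 4 and 5, without cDC1 replicate 1, 2 or 3, with medians of 0.15, 0.08 and 0.13. Notch4 (18132) was lower at 7.43, 6.15 and 6.5 RPKM in mcDC, against 33.1, 45.3 and 35.4 RPKM in cDC1 (-2.33 ± 0.19, limma adjusted p = 0.00034), as was the ligand Jag2 (16450) (-1.88 ± 0.23, limma adjusted p = 0.002), while Notch2 (18129), the receptor that cDC2 of the spleen depend on, had 58.5, 57.9 and 27.3 RPKM in mcDC, against 45.2, 39.9 and 31.9 RPKM in cDC1, with overlapping groups (0.47).

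Of 24 integrin chains 19 were tested, 5 were higher and 2 lower (36.8% called, against 12.6% over all genes), with a median of -0.01 and the same counts with no block. The integrin counts became 7 and 2, 4 and 2, or 5 and 3, without mcDC replicate 1, 2 or 3 and 7 and 2, 5 and 2, or 6 and 3, without cDC1 replicate 1, 2 or 3, with medians of 0.06, 0.07 and 0.29. Itgad (381924), the CD11d chain, was at 15.7, 16.9 and 12.7 RPKM in mcDC, against 3.39, 1.6 and 3.77 RPKM in cDC1 (2.08 ± 0.27, limma adjusted p = 0.0027). Itga8 (241226) was lower at 1.68, 1.94 and 1.4 RPKM in mcDC, against 9.63, 12.2 and 8.35 RPKM in cDC1 (-2.04 ± 0.22, limma adjusted p = 0.0012). Of 30 genes of calcium release and entry 27 were tested, 2 were higher and 0 lower (7.41% called, against 12.6% over all genes), with a median of 0.14. The calcium counts became 2 and 0, 1 and 0, or 5 and 1, without replicate 1, 2 or 3 of either subset, with medians of 0.04, 0.14 and 0.20. Beside Ryr3 this was Atp2a3 (53313), a pump that returns calcium to the endoplasmic reticulum, at 33.7, 31.4 and 30.8 RPKM in mcDC, against 17.8, 18.1 and 19.5 RPKM in cDC1 (0.76 ± 0.15, limma adjusted p = 0.015), and its call was lost without mcDC replicate 2 (0.085) or cDC1 replicate 2 (0.078). Of 23 genes of the phagosomal oxidase and proton pump 21 were tested, 4 were higher and 2 lower (28.6% called, against 12.6% over all genes), with a median of 0.02 (3 and 1 with no block).

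Genes listed as markers of other cells moved with the subset in part. Of 19 NK and innate lymphoid genes 17 were tested, 11 were higher and 0 lower in mcDC (64.7% called, against 12.6% over all genes), with a median of 1.22 (8 with no block), and the list averaged 3.50, 3.96 and 4.38 in log2(RPKM + 1) in mcDC, against 2.58, 2.52 and 2.87 in cDC1. Ncr1 (17086), the NK receptor NKp46, was at 21.4, 32.2 and 22.3 RPKM in mcDC, against 4.1, 5.64 and 4.79 RPKM in cDC1 (2.15 ± 0.18, limma adjusted p = 0.0004). Tbx21 (57765), the factor T-bet, was at 15, 17.5 and 21 RPKM in mcDC, against 1.85, 2.13 and 3.72 RPKM in cDC1 (2.42 ± 0.20, limma adjusted p = 0.00041). The summed level of the list was 353 to 592 RPKM in mcDC, against 143 to 211 RPKM in cDC1. Its members Klrk1, Il7r and Prf1 were not called (limma adjusted p = 0.25, 0.13 and 0.079). Of 19 monocyte genes 17 were tested, 12 were higher and 1 lower (76.5% called, against 12.6% over all genes), with a median of 1.14 (9 and 1 with no block). Ms4a4c (64380) was at 59.9, 76.5 and 76.4 RPKM in mcDC, against 23.6, 5.95 and 6.34 RPKM in cDC1 (2.73 ± 0.39, limma adjusted p = 0.0038). S100a4 (20198) was at 650.0, 711 and 684 RPKM in mcDC, against 228, 74.2 and 102 RPKM in cDC1 (2.49 ± 0.30, limma adjusted p = 0.0017), while Ly6c2 (100041546), which marks inflammatory monocytes, had 24.4, 30.5 and 44.9 RPKM in mcDC, against 45.6, 23.8 and 40.0 RPKM in cDC1 and did not pass (0.79). The monocyte list summed to 2218 to 2265 RPKM in mcDC, against 862 to 1352 RPKM in cDC1. Some of these genes were also high in the cDC2 libraries, which were outside the fit. There S100a4 was at 817, 1047 and 1199 RPKM and Ms4a4c at 80.4, 104 and 129 RPKM. Tbx21, which is also on the cDC2 list, was at 10.1, 9.72 and 9.01 RPKM in cDC2. Ncr1 was at 2.67, 3.26 and 4.78 RPKM in cDC2, and Ly6c2 at 5.83, 22.7 and 39.4 RPKM. Whether RNA of NK cells, innate lymphoid cells or monocytes has a part in the differences was not tested.

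Of 16 T cell genes tested among 19 listed 2 were higher and 1 lower (18.8% called, against 12.6% over all genes), with a median of 0.04 (1 and 0 with no block). The T cell counts became 1 and 0, 1 and 1, or 3 and 1, without replicate 1, 2 or 3 of either subset, with medians of 0.08, -0.08 and 0.26. The higher genes were Tcf7 (21414), a factor of T cell and lymphoid progenitors (1.66 ± 0.14, limma adjusted p = 0.00042), and Cd5 (0.81 ± 0.21, limma adjusted p = 0.043). Cd5 was not called with no block (0.063), after quantile normalization (0.064) or without replicate 1 or 2 of mcDC (0.16 and 0.25) or of cDC1 (0.14 and 0.22). Cd3g, a chain of the T cell receptor complex, was lower (-1.29 ± 0.26, limma adjusted p = 0.019), but not with no block (0.1) or without replicate 1 of mcDC (0.053) or cDC1 (0.081). Of 16 B and plasma cell genes tested among 19 listed 6 were higher and 2 lower (50% called, against 12.6% over all genes), with a median of 0.74 (3 and 1 with no block). Cd22 (12483), an inhibitory lectin of B cells, was at 49.7, 42.7 and 34.2 RPKM in mcDC, against 5.87, 5.59 and 5.16 RPKM in cDC1 (2.71 ± 0.17, limma adjusted p = 0.00015). Cd79a (12518), a chain of the B cell receptor complex, had 3.29, 4.74 and 4.98 RPKM in mcDC, against 3.56, 3.55 and 2.41 RPKM in cDC1 and did not pass (0.46). Cd79b, of the same complex, was among the genes called higher. So was Jchain (1.27 ± 0.15, limma adjusted p = 0.0018), with overlapping groups and an adjusted p of 0.24 with no block. Ms4a1 was called lower (-1.42 ± 0.36, limma adjusted p = 0.042), but not with no block (0.11). Of 10 neutrophil genes tested among 19 listed 2 were higher, Mmp9 and Csf3r (20% called, against 12.6% over all genes), and S100a8 (20201) had 0.619, 12.4 and 21.3 RPKM in mcDC, against 1.62, 6.48 and 14.2 RPKM in cDC1 with overlapping groups. The median of the neutrophil list was -0.30. For cDC2, outside the fit, Cd22 was at 64, 68.6 and 58 RPKM and Cd79a at 1.06, 1.18 and 2.24 RPKM. Mmp9 was at 40.5, 27.1 and 18.5 RPKM in cDC2, Csf3r at 21.6, 33.1 and 29.4 RPKM and S100a8 at 60.2, 345 and 632 RPKM. The neutrophil counts became 2 and 0, 2 and 0, or 2 and 0, without replicate 1, 2 or 3 of either subset, with medians of -0.37, -0.07 and -0.23. Plasmacytoid dendritic cell genes had 4 higher and 2 lower of 15 tested among 16 listed (40% called, against 12.6% over all genes), with a median of 0.34 (1 and 2 with no block). The plasmacytoid counts became 4 and 1, 2 and 1, or 3 and 4, without replicate 1, 2 or 3 of either subset, with medians of 0.61, 0.29 and 0.11.

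Erythroid and platelet genes had 1 call, the transferrin receptor Tfrc, among 17 tested of 20 listed (5.88% called, against 12.6% over all genes), with a median of -0.31. The erythroid counts became 2 and 2, 1 and 0, or 1 and 1, without replicate 1, 2 or 3 of either subset, with medians of -0.47, -0.44 and -0.09. Their list averaged 1.05, 3.07 and 2.75 in log2(RPKM + 1) in mcDC, against 0.93, 3.25 and 3.24 in cDC1, low in replicate 1 of both subsets. Of the markers in the deposited table, none in these lists was at 0 in all 6 libraries. Early response genes of tissue dissociation had 3 of 22 higher (13.6% called, against 12.6% over all genes) and 0 with no block, with Nr4a1 (15370) at 419, 145 and 149.7 RPKM in mcDC, against 168, 73.7 and 80.2 RPKM in cDC1 and overlapping groups (1.06 ± 0.14, limma adjusted p = 0.0029, with no block 0.23). The dissociation counts became 4 and 2, 2 and 0, or 4 and 0, without mcDC replicate 1, 2 or 3 and 4 and 2, 2 and 0, or 3 and 0, without cDC1 replicate 1, 2 or 3, with medians of 0.05, 0.20 and 0.22. In this list replicate 1 was highest in both subsets. Of 30 cell cycle genes 0 were higher and 1 lower (3.33% called, against 12.6% over all genes), with a median of -0.02 (0 and 0 with no block), and Mcm7 (17220) had 35.7, 42.4 and 49.4 RPKM in mcDC, against 29.3, 42.9 and 42.4 RPKM in cDC1 (0.52). The cell cycle counts became 0 and 1, 0 and 1, or 0 and 1, without replicate 1, 2 or 3 of either subset, with medians of -0.21, 0.01 and 0.02.

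**Figure D5:**
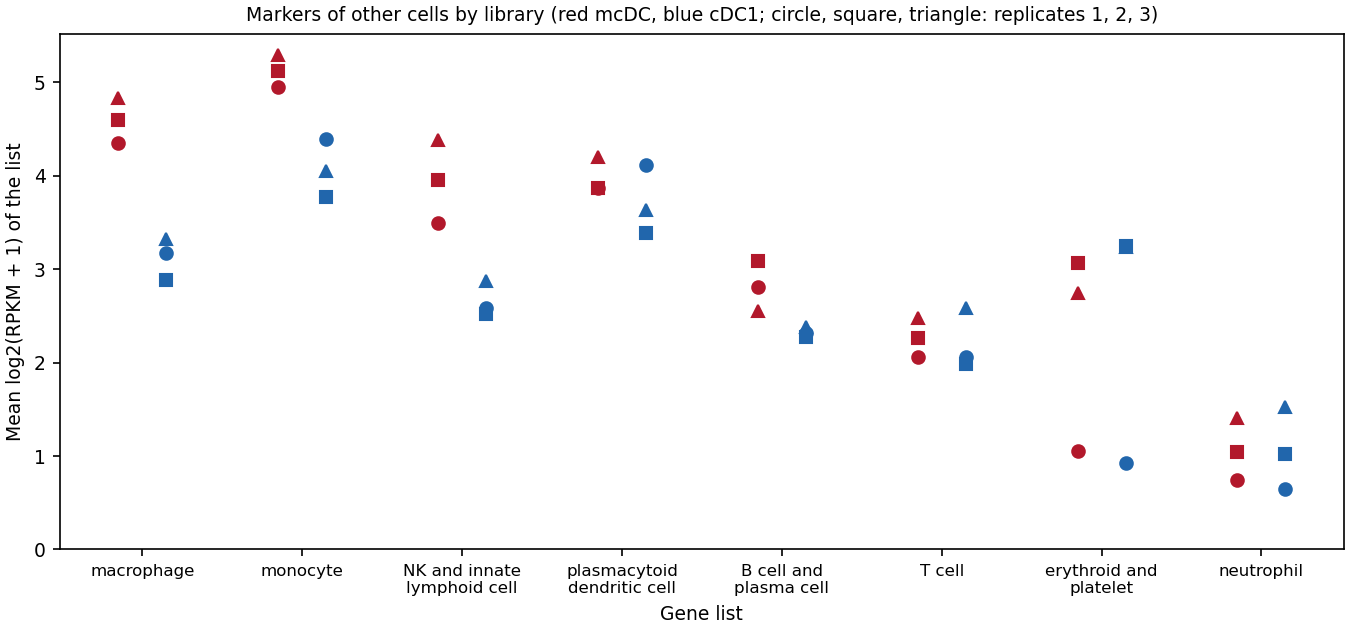
Mean log2(RPKM + 1) of the marker list of each other cell type in each library, mcDC in red left of cDC1 in blue, with circle, square and triangle for replicates 1, 2 and 3. Macrophage, monocyte, NK and B cell lists are higher in all 3 mcDC libraries, T cell and neutrophil lists overlap, and the erythroid list is low in replicate 1 of both subsets.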

How the data were processed

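The authors deposited RPKM values per gene. The genome build is mm8, per the submitters' processing notes, and aligner and counter are not given in the sources used here. The labels describe a directional kit, and whether strand was used in counting was not given. Each RPKM value was a whole number of reads within a tolerance of 0.01 (100.0% of values), which gave the depths.

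The 11805 genes above 1 RPKM in at least 2 of 6 libraries were fitted as log2(RPKM + 1) with limma 3.58.1 in R 4.3.3, with a trend in the prior variance, title run as a block and subset as the effect. There were 2 residual degrees of freedom, a median prior of 5.6 and a median standard error of 0.210. p-values were adjusted by Benjamini and Hochberg over all genes tested, with a threshold of 0.05. Tables and figures were made with Python 3.11.15, numpy 2.4.6, pandas 2.3.3 and matplotlib 3.10.9. The fit was also run on simulated data. These carried run effects by title run, so they cannot test whether the block is right.

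The block was kept because the comparison pairs libraries by title run. Over 8359 genes with a mean of at least 5 RPKM, deviations from the subset means correlated at 0.447, 0.095 and 0.388 within runs 1, 2 and 3, against -0.494 to 0.007 between runs. Every library correlated best with its own run. The check had been planned to ask for over 0.1 in every run, which run 2 did not meet. Deviations within a subset cancel, which by itself draws between-run values down where within-run values are high. What a run shares is not labelled. Counts without the block stand beside the lists they change, and so do p-values of named genes that lose their call. List counts and medians without single libraries, all fitted with the block, are given where a median turned sign, a median of at least 0.1 moved by over 1.5 times, or a count did so by at least 2 genes.

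Genes were named by a rule, which took 12 rises and 12 falls of greatest size from called autosomal genes with at least 5 RPKM in the higher subset, no overlap and one direction in all 3 pairs. From each list it took at most 4 called members in the direction with more calls, 2 in the opposite one and 3 uncalled, and some genes of known role were always named. List members named outside this rule were chosen after their values were seen. The members and the 35 lists were chosen with earlier results of these data known. Promoter windows are from RefSeq on GRCm38.p6 and no mm8 coordinates are given. Alternatives were another scaling, pseudocount, filter or prior, voom on recovered reads, thinning to one depth, all 9 libraries, no block, and leaving out each library. A few list members are counted but not reported here by name.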

Additional observations from a re-analysis of the deposited data

How the results depend on the processing

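Beside the 1484 genes called (876 higher, 608 lower), 22 alternative settings were run, and of 256 named genes 0 turned sign where either value passed the test; uncalled genes did turn, such as Batf3 (0.06, but -0.08 with median-of-ratios scaling and -0.15 without mcDC replicate 3). With no replicate block 1096 genes were called (637 higher, 459 lower), and 34 of the 160 named calls were lost, so a result that needs the block rests on a pairing by title that held clearly in runs 1 and 3 only. Of those 160 calls 81 held in all 22 settings. With all 9 libraries in the fit 2486 genes were called, 1573 higher and 913 lower. With voom on recovered reads 1358 were higher. Leaving out a library gave 399 to 1933 calls, 219 to 1188 higher and 180 to 745 lower; with the block it gave 1016 to 1933, the lowest without mcDC replicate 2 (1016, of which 582 higher) and cDC1 replicate 2 (1026). With no block, 571 genes were called without mcDC replicate 2 (310 higher, 261 lower), 742 without cDC1 replicate 1 (470 and 272), 399 without cDC1 replicate 2 and 462 without cDC1 replicate 3 (206 lower). With the block the partner of a library left out carries no weight, and those fits rest on 2 pairs. Depth limits genes of few reads most in mcDC replicate 3, where 12.35% of genes were at 0. Median-of-ratios scaling turned the median log2 fold change negative in the lists of MHC class II (-0.07), Notch (-0.05), T cell (-0.04), Toll-like receptor (-0.05), cross-presentation (-0.10), dissociation (-0.03) and oxidase and pump genes (-0.12).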
